A study of Homo sapiens with 15 samples.

Results

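A run of 56 genes on the long arm of chromosome 14 is described across 5 sublines of VCaP, an established human prostate cancer cell line. The genes are those whose lowest start on GRCh38 lies within chr14:50532509-58298134, a stretch of 7.77 Mb, and whose mean count over the 15 libraries is at least 10. The range was picked because its genes read higher in VCaP-CT-ER than in the other sublines of these same libraries, so every value of VCaP-CT-ER against another subline was used in the choice and is given as a description, with no test. The counting annotation lists 155 genes in the range, of which 34 had no count in any library and 65 had some counts but a mean under the limit. The 56 members stand against 18215 genes of the whole series with a mean of at least 10, 534 of them elsewhere on chromosome 14. They are 42 protein-coding genes, 8 long noncoding RNA (lncRNA) genes and 6 pseudogenes, with 31 on the plus strand and 25 on the minus strand. At the count limit, ENSG00000259039 entered with a mean of 10.3 and ENSG00000273888 stayed out with 9.8.

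Each subline was sequenced in 3 replicates, and a single derivation of each is described, so treatment, time in culture and derivation cannot be told apart. VCaP-T was kept with 10 nM testosterone over 7 months, in serum stripped of steroids, and depends on testosterone. VCaP-CT is VCaP-T after another 10 months at 0.1 nM testosterone, a model of androgen deprivation. VCaP-CT-ER is VCaP-CT that regrew under 10 µM enzalutamide (ENZ), an antiandrogen, and the study's methods call it VCaP-CT-ET. VCaP-CT-BR came from VCaP-CT under bicalutamide, an older antiandrogen, and VCaP-CT-BR-ER came from the bicalutamide-insensitive cells under ENZ. The treatment entries of the labels instead give 10 nM testosterone for the second culture too, and the text on VCaP-CT-BR names ENZ as a later treatment as well. All 4 later sublines therefore share the androgen deprivation that made VCaP-CT. The study's reporting summary calls the 3 replicates biological. Nothing in the labels says that replicates were separate cultures, so p-values measure only the spread between these samples.

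The members have no common function. They hold subunits of the proteasome, the protease complex that degrades ubiquitin-tagged proteins, enzymes that form and exchange disulfide bonds in the endoplasmic reticulum (ER), regulators of mitosis and DNA replication, tethers and adaptors of vesicle traffic, and the Hippo scaffold SAV1. The study follows how the cells respond to testosterone and to antiandrogens. What the members share is their place on the chromosome, so the values below are ordered first by position and then by role. In bulk RNA, fewer cells of a type and less RNA per cell cannot be told apart.

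Stretches just before the RefSeq start sites of 6 members that the results return to are printed first, from GRCh38.p14, in lower case and 5′ to 3′ on the strand of the gene. They were chosen because 5 of these genes stood among the larger steps below, and because WDHD1 faces its neighbour SOCS4 across a shared interval. Capitals mark a CCAAT box (CCAAT), a GC box (GGGCGG) or a cell cycle homology region (TTTGAA), each on either strand, and the motifs below were searched on both strands too. No motif's letters contain those of another.
PYGL, chr14:50944484-50944733, minus strand: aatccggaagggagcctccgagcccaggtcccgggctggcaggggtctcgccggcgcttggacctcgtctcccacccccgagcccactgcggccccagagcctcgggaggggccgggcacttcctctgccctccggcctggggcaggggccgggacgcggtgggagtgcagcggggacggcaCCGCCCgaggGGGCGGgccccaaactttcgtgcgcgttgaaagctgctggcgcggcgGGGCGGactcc
TXNDC16, chr14:52552506-52552755, minus strand: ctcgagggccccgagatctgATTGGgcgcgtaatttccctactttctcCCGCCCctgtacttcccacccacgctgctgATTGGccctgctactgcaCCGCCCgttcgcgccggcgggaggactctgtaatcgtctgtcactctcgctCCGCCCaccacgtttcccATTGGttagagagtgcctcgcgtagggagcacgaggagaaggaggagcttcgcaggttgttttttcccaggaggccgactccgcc
CDKN3, chr14:54396757-54397006, plus strand: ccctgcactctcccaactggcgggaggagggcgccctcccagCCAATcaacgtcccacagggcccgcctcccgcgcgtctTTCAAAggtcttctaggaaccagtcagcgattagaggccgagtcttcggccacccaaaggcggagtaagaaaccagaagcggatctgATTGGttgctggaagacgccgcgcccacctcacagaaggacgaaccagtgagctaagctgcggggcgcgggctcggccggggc
SAMD4A, chr14:54566878-54567127, plus strand: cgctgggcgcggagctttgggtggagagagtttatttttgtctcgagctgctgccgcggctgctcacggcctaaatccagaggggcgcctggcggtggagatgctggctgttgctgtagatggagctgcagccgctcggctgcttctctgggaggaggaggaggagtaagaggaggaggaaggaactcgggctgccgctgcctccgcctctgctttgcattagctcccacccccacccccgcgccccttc
WDHD1, chr14:55027100-55027235, minus strand, the 136 bases between its RefSeq start and that of SOCS4: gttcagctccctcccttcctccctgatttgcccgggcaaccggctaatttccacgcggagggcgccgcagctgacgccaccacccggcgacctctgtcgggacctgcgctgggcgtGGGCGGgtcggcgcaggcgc
DLGAP5, chr14:55191586-55191835, minus strand: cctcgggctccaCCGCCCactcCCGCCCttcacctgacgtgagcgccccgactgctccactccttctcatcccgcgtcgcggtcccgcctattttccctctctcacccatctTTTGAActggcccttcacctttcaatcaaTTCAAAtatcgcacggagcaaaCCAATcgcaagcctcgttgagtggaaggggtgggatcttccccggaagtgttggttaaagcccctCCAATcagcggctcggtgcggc
The window of TXNDC16 held 3 CCAAT and 3 GC boxes, that of PYGL 3 GC boxes, and that of SAMD4A none of the motifs. The mitotic genes CDKN3 and DLGAP5 were the only 2 of the 38 members with a RefSeq promoter whose window held TTTGAA or its reverse complement, 5.26% against 13.3% of all 35116 promoters. A GC box stood in 71.1% of the member windows against 42.6% of all, a CCAAT box in 39.5% against 32.0%, and a TATA box (TATAAA) in 2.63% against 10.7%. The E-box CACGTG was in 2.63% against 6.34%. AGAACA, a partial site of the androgen receptor, was in 0 of the 38 member windows against 12.4% of all. The members had to pass a count limit and the 35116 promoters did not, so these shares do not set the range apart from other expressed genes. These are letters in windows of 250 bases, and were not tied to binding.

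The libraries held between 33665716 and 46935279 counted fragments, the most in VCaP-CT-ER replicate 1. The share of mitochondrial counts was 9.17% to 9.56% in VCaP-CT-ER and 7.18% to 8.94% in the others. Of the luminal prostate markers, KLK2 read 3274 to 14770 counts scaled to the library total (CPM), FOXA1 473 to 707 CPM, HOXB13 364.5 to 759.6 CPM and KRT8 212 to 1045 CPM, while KLK3 ranged from 13.5 to 3617 CPM over the libraries. Of the fibroblast list, COL1A2 was at 0 throughout and the summed level was 6.41 to 7.97 CPM in VCaP-T and VCaP-CT, 184 to 216 in VCaP-CT-ER, 23.97 to 25.01 in VCaP-CT-BR but 217 to 250 in VCaP-CT-BR-ER, where LUM alone reached 248. The 4 leukocyte markers summed to at most 0.994 CPM in each library, with CD3E at 0. The endothelial list of 3 genes lay at 13.2 to 16.3 CPM in VCaP-T and at 0.0745 to 0.269 in VCaP-CT-ER, with at most 1 count of CDH5 in any library. The part of these differences in the results below was not tested.

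As a whole, the members took the largest share of the library in VCaP-CT-ER. Their counts made up 0.176%, 0.183% and 0.176% of the 3 VCaP-T libraries, 0.155%, 0.145% and 0.159% of VCaP-CT, 0.263%, 0.264% and 0.286% of VCaP-CT-ER, 0.237%, 0.219% and 0.227% of VCaP-CT-BR and 0.208%, 0.201% and 0.211% of VCaP-CT-BR-ER. The 5 sublines did not overlap in this share, and their order from the lowest was VCaP-CT, VCaP-T, VCaP-CT-BR-ER, VCaP-CT-BR and VCaP-CT-ER. The 8 members with the most counts held 52.7% of all member counts, led by KTN1 with 9.71%, TXNDC16 with 8.81% and GMFB with 7.59%. TXNDC16 made up at least 10.6% of the member counts in VCaP-CT-ER against 6.77% to 6.92% in VCaP-CT. Without TXNDC16 the share was 0.234% to 0.254% of the library in VCaP-CT-ER, 0.203% to 0.220% in VCaP-CT-BR and 0.135% to 0.148% in VCaP-CT. The order of the sublines was then the same.

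Weighting each gene alike gave a similar order. Each member's log2 CPM was taken relative to its own mean over the 15 libraries, and the median over the members was −0.24 ± 0.01 (SD, n = 3) in VCaP-T, then −0.32 ± 0.09 in VCaP-CT, next 0.39 ± 0.08 in VCaP-CT-ER, then 0.095 ± 0.04 in VCaP-CT-BR and lastly −0.027 ± 0.01 in VCaP-CT-BR-ER. In VCaP-T and VCaP-CT the libraries overlapped, from −0.25 to −0.22 and from −0.42 to −0.25. Over the 534 other genes of chromosome 14 the same medians were −0.079, −0.089, 0.22, −0.009 and −0.006. By mean CPM, VCaP-CT-ER was the highest subline for 34 of the 56 members, VCaP-CT-BR for 12, VCaP-T for 5, VCaP-CT for 4 and VCaP-CT-BR-ER for 1. Leaving out VCaP-CT-ER, the highest of the other 4 sublines was VCaP-CT-BR for 26 members, VCaP-T for 13, VCaP-CT-BR-ER for 12 and VCaP-CT for 5. The lowest of these 4 was VCaP-CT for 29 members and VCaP-T for 23. These orders were not counted over all genes tested, so whether they are particular to the members was not tested. All 3 VCaP-CT-ER libraries lay above all 12 others for 27 members, 25 of them protein-coding, against 8.69% of the 19621 genes tested, and lay below all 12 for 0 members against 7.13%.

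**Figure D1:**
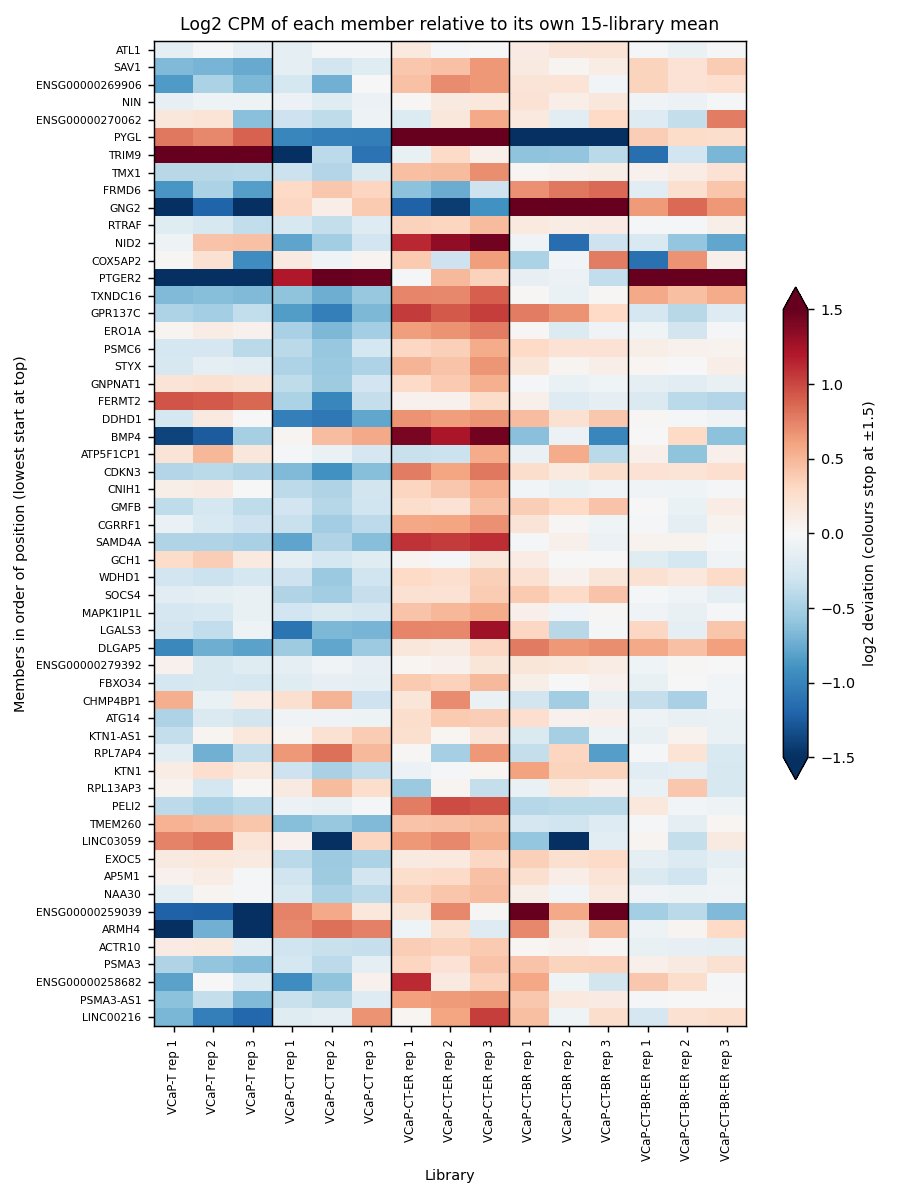
Log2 CPM of the 56 members (rows, ordered by position) in the 15 libraries (columns, 3 replicates per subline), each relative to the member's own mean. The VCaP-CT-ER columns are red for most rows, the VCaP-CT columns blue, and some rows, among them GNG2, PTGER2, FRMD6, ARMH4 and RPL13AP3, go against this pattern.

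Along the chromosome, VCaP-CT-ER read higher from end to end of the range, with the highest medians between 2 and 4 Mb from the first member's start. In bins of 1 Mb from the first member's start, the median fold change of VCaP-CT-ER against VCaP-CT on the log2 scale was 0.70 over the first 9 members, 0.46 over the next 6, 1.03 over the 7 members between 2 and 3 Mb, 0.91 over the next 6 and 0.63 over the 12 members between 4 and 5 Mb. The bin from 5 to 6 Mb, with 5 members, read 0.37, and the bin from 6 to 7 Mb, with 4 members, read 0.74. The bin that holds the last 7 members and 5 genes beyond the end read 0.49. The bin between 2 and 3 Mb holds GPR137C, ERO1A, PSMC6, STYX, GNPNAT1, FERMT2 and DDHD1. These bins are small, and the one from 5 to 6 Mb contains 2 pseudogenes among its 5 members.

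The other sublines varied along the range in ways of their own. Between 2 and 3 Mb the members' median deviation was −0.68 to −0.46 in the VCaP-CT libraries and −0.24 to 0.11 in those of VCaP-T, so the low point of VCaP-CT met the high point of VCaP-CT-ER, at 0.42 to 0.66. Between 7 and 8 Mb it was VCaP-T that was lowest, at −0.68 to −0.59, with VCaP-CT at −0.34 to 0.068. VCaP-T was also lowest between 1 and 2 Mb, at −0.80 to −0.42, with VCaP-CT at −0.21 to −0.052. VCaP-CT-BR stood at 0.068 to 0.13 in the first bin and at 0.14 to 0.45 in the last. It overlapped with VCaP-CT between 1 and 2 Mb, at −0.068 to 0.066, and between 5 and 6 Mb, where its libraries spread from −0.25 to 0.15. VCaP-CT-BR-ER reached 0.28 to 0.56 between 1 and 2 Mb, over 6 members that include PTGER2 and TXNDC16, and lay between −0.086 and 0.064 in each library between 3 and 5 Mb. The VCaP-CT-ER libraries stayed above 0 in each of the 8 bins.

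**Figure D2:**
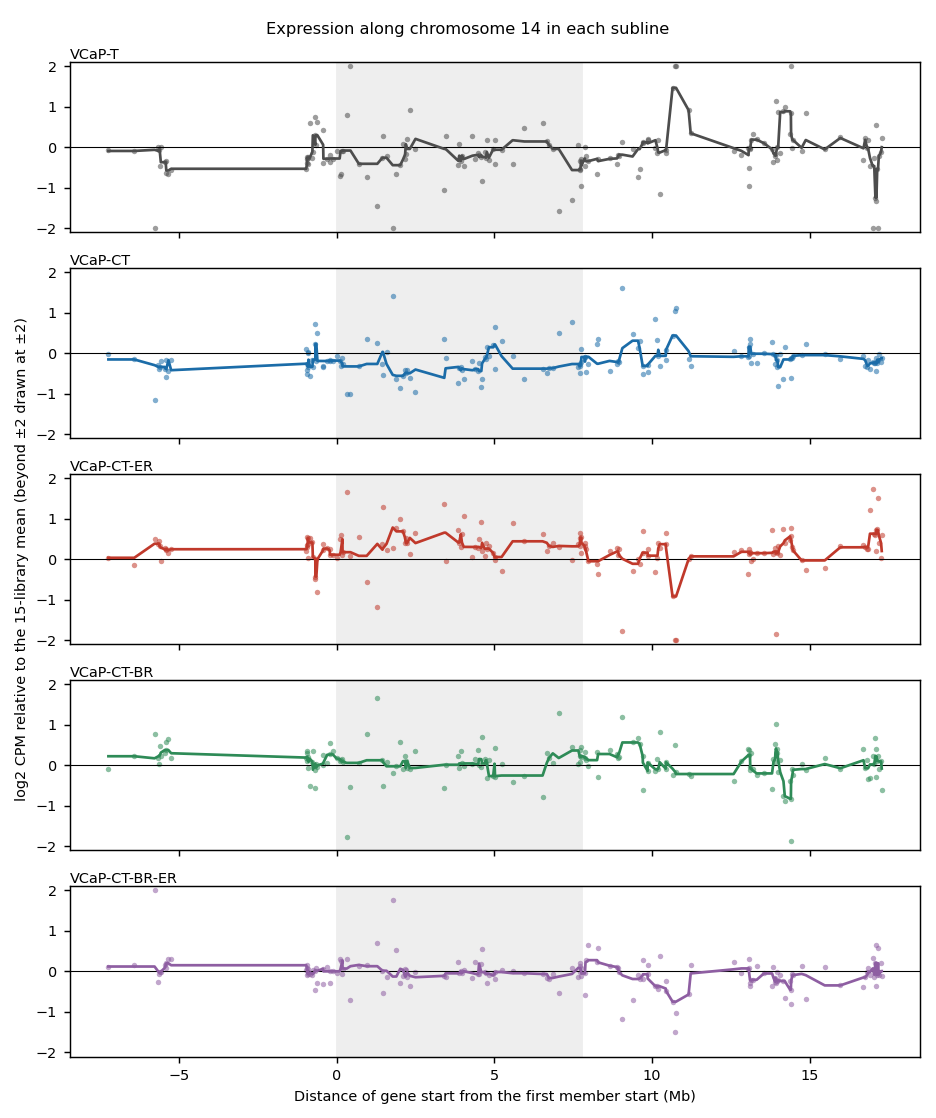
Log2 CPM relative to the 15-library mean for genes of chromosome 14 with a mean count of at least 10 (points, mean of 3 replicates; line, running median of 5 genes) against distance in Mb from the first member's start, 1 panel per subline. Inside the shaded range of 7.77 Mb the VCaP-CT-ER line stays above 0 for most of its length and the VCaP-CT line below it.

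The nearest genes outside it on the near side, CDKL1 and MAP4K5, differed between VCaP-CT-ER and VCaP-CT by 0.28 ± 0.20 and 0.29 ± 0.056 (log2 ± SE), and the first members, ATL1 and SAV1, by 0.11 ± 0.066 and 0.70 ± 0.066. MAP4K5, a kinase gene that shares exon bases with ATL1, read 51.4, 52.6 and 50.7 CPM in VCaP-T, then 58.4, 51.3 and 56.2 in VCaP-CT, next 65.5, 69.5 and 68.1 in VCaP-CT-ER, then 81.97, 76.4 and 80.4 in VCaP-CT-BR and lastly 66.1, 59.4 and 62.97 in VCaP-CT-BR-ER. On the far side, the last members PSMA3-AS1 and LINC00216 differed by 0.96 ± 0.079 and 0.46 ± 0.33. The next genes out, ARID4A, which codes for a chromatin protein that binds RB1, and TOMM20L, differed by 0.36 ± 0.069 and 0.49 ± 0.31. LINC00216 and TOMM20L are read from under 1 CPM each, and their standard errors cover most of these differences. At both ends the genes just inside and just outside overlapped in the size of this difference. Against VCaP-CT-BR the inside and the outside stood further apart. The median was then 0.036 over the 20 genes of the last 1 Mb before the range and 0.41 over the first 9 members, with CDKL1 at −0.43, MAP4K5 at −0.23, ATL1 at −0.13 and SAV1 at 0.41. At the far end, PSMA3-AS1 was at 0.41 and LINC00216 at 0.39, against −0.30 for ARID4A and 0.006 for TOMM20L.

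By their medians over longer stretches, genes around the range were also higher in VCaP-CT-ER, by less. Bins of 1 Mb outside the range varied, and some were as high as bins inside it. The 11 genes of chr14:67532509-68532508 had a median of 0.825 against VCaP-CT and 0.507 against VCaP-CT-BR. The 10 genes of chr14:44532509-45532508 read 0.67 and −0.152, and the 9 genes of chr14:60532509-61532508 read −0.283 and −0.169. The members' median difference from VCaP-CT was 0.71 on the log2 scale (1.64-fold), against 0.46 over the 32 genes of the 10 Mb before, 0.37 over the 76 genes of the 10 Mb after, 0.34 over all 534 other genes of the chromosome and −0.019 over all genes tested. Chromosome 14 as a whole had a median of 0.36, the highest of the 22 autosomes. Against VCaP-CT-BR the members' median was 0.36, the 10 Mb before read 0.000 and the 10 Mb after 0.12. Against VCaP-CT-BR-ER the 3 values were 0.43, 0.17 and 0.27. Against VCaP-T they were 0.64, 0.55 and 0.25. By median, the 32 genes of the 10 Mb before were thus about as high in VCaP-CT-BR as in VCaP-CT-ER, which the members were not. Over all 207 genes of the chromosome before the range the median against VCaP-CT-BR was 0.21, and over the 327 after it 0.23. The fitted fold against VCaP-CT-BR was above 1 for 41 of the 56 members.

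**Figure D3:**
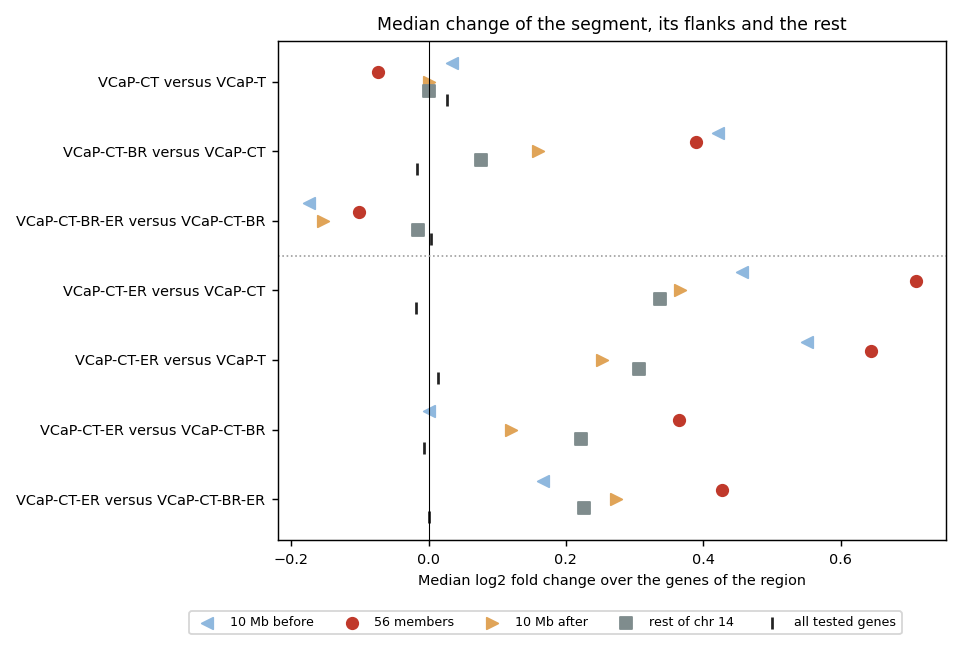
Median log2 fold change (x axis) of the 56 members, the 10 Mb on either side, the rest of chromosome 14 and all tested genes in 7 comparisons; those below the dotted line use VCaP-CT-ER and are descriptions. In each of these 4 the members' median is the highest of the 5 sets, from 0.36 to 0.71, while in VCaP-CT-BR against VCaP-CT the genes before the range, at 0.42, stand slightly above the members, at 0.39.

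Counted gene by gene with edgeR at an adjusted p under 0.05, 41 members passed as higher in VCaP-CT-ER than in VCaP-CT (background 29.6% of all genes tested) and 5 as lower (31.2%). Against VCaP-T the counts were 39 higher (34.3%) and 4 lower (34.7%), against VCaP-CT-BR 30 (27.1%) and 5 (28.8%), and against VCaP-CT-BR-ER 35 (22.7%) and 4 (23.3%). Nothing is read from these counts, since the range was chosen on them. The fitted fold was above 1 against all 4 sublines for 34 members. Among the 42 protein-coding members 37 passed as higher than in VCaP-CT, and among the 14 noncoding genes and pseudogenes 4 did, where the median difference was 0.24.

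The first of the 3 comparisons that the choice of the range did not use directly asked how the members stood in VCaP-CT-BR, the bicalutamide-resistant cells, against VCaP-CT. Here 39 of the 56 members rose (background 26.1% of all genes tested, in edgeR with Benjamini-Hochberg adjustment) and 6 fell (27.0%), and 11 did not pass. The median was 0.39 on the log2 scale, or 1.31-fold, against −0.017 over all genes tested. Of the protein-coding members 35 rose and 4 fell. Since VCaP-CT is also the subline against which VCaP-CT-ER was read, the same libraries serve both comparisons, and they were the lowest of the series for 29 members. With VCaP-T in place of VCaP-CT, a comparison added after the data were seen, 32 members were higher in VCaP-CT-BR (background 35.9%) and 9 lower (35.3%), with a median of 0.28. Among the members with a mean log2 CPM of 1 or more, the largest rises were those of GPR137C, at 1.44 ± 0.12 (log2 ± SE, edgeR adjusted p = 3.94e-09), and GNG2, at 1.396 ± 0.11 (edgeR adjusted p = 1.34e-09). The largest falls were those of PTGER2, at −1.64 ± 0.15 (edgeR adjusted p = 1.36e-08), and PYGL, at −0.76 ± 0.14 (edgeR adjusted p = 1.39e-04). The genes of the 10 Mb before the range had a median of 0.42, those of the 10 Mb after one of 0.16, and the rest of the chromosome 0.076.

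The long androgen deprivation, VCaP-CT against VCaP-T, moved the members in both directions. Here 14 rose (background 33.1%) and 20 fell (32.2%), with a median of −0.074 against 0.026 over all genes tested, so the members' counts were near the background. Of the protein-coding members 10 rose and 20 fell, with a median of −0.18. Among the members with a mean log2 CPM of 1 or more, PTGER2, the EP2 receptor for prostaglandin E2, made the largest rise at 4.95 ± 0.24 (edgeR adjusted p = 9.22e-14), from 0.22 CPM or less in each VCaP-T library. At so few counts this SE, derived from the F statistic, can be too small. GNG2 followed with 1.74 ± 0.15 (edgeR adjusted p = 9.36e-10). The largest falls were those of PYGL, −1.84 ± 0.11 (edgeR adjusted p = 4.45e-12), and FERMT2, −1.502 ± 0.12 (edgeR adjusted p = 4.97e-10). TRIM9, a ubiquitin ligase first described in brain that was singled out after its values were seen, fell further still from a lower level, −3.303 ± 0.25 (edgeR adjusted p = 2.23e-10), reading 2.56, 2.67 and 2.54 CPM in VCaP-T, then 0.151, 0.399 and 0.224 in VCaP-CT, next 0.497, 0.669 and 0.571 in VCaP-CT-ER, then 0.337, 0.340 and 0.397 in VCaP-CT-BR and lastly 0.219, 0.434 and 0.315 in VCaP-CT-BR-ER. All TRIM9 libraries outside VCaP-T lay far below those of VCaP-T. ENSG00000259039 had 3 counts or fewer in every VCaP-T library, and no fold against VCaP-T is given for it.

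The step that led on to VCaP-CT-BR-ER, ENZ after bicalutamide and read against VCaP-CT-BR, saw more members fall than rise. In it 6 rose (background 21.2%) and 17 fell (21.7%), and 33 did not pass, with a median of −0.10 against 0.003 over all genes tested. Without VCaP-CT-BR replicate 1 the median was −0.061. The 10 Mb before and after the range had medians of −0.18 and −0.15. PYGL rose by 2.097 ± 0.12 (log2 ± SE, edgeR adjusted p = 1.27e-11) and PTGER2 by 1.99 ± 0.15 (edgeR adjusted p = 5.71e-10). GNG2 fell, at −0.95 ± 0.11 (edgeR adjusted p = 2.46e-07), and so did GPR137C, at −0.88 ± 0.11 (edgeR adjusted p = 2.13e-06). ENZ was the last agent for VCaP-CT-ER as for VCaP-CT-BR-ER, and the members' libraries did not move together. For 20 members all VCaP-CT-ER libraries lay above VCaP-CT while all VCaP-CT-BR-ER libraries lay below VCaP-CT-BR, against 6.65% of all genes, and the reverse held for 1 member, PTGER2, against 6.62%. The VCaP-CT-ER side of this pattern was part of the choice of the range.

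**Figure D4:**
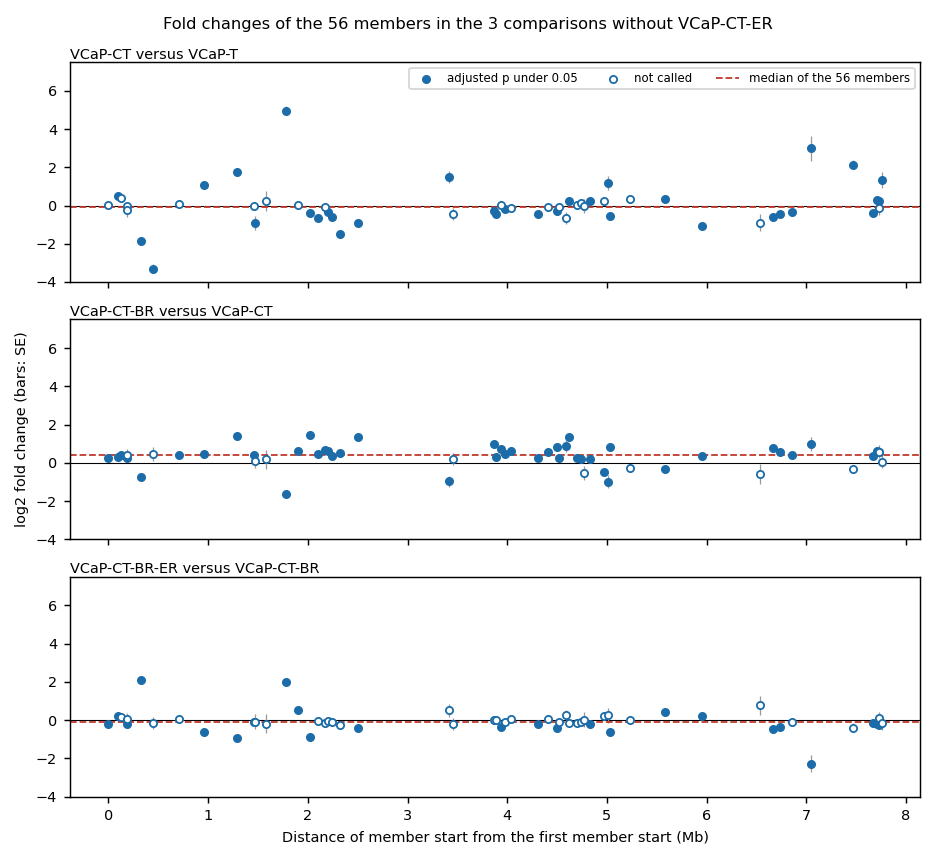
Log2 fold change (bars, SE) of each member against its distance in Mb from the first member's start in the 3 comparisons without VCaP-CT-ER; filled points passed edgeR at an adjusted p under 0.05 and the dashed line is the members' median. Most filled points lie above 0 in VCaP-CT-BR against VCaP-CT (39 of 45), while the other 2 panels have filled points on both sides. One point at about 7 Mb in the top panel, ENSG00000259039, rests on 3 counts or fewer in each VCaP-T library.

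The proteasome subunits PSMC6, an ATPase of the regulatory particle, and PSMA3, an alpha ring subunit of the core, were close together in VCaP-CT-ER and VCaP-CT-BR. PSMC6 read 35.1, 35.4 and 31.9 CPM in VCaP-T, then 31.7, 28.5 and 35.1 in VCaP-CT, next 52.3, 53.9 and 61.8 in VCaP-CT-ER, then 51.6, 49.03 and 49.1 in VCaP-CT-BR and lastly 44.7, 44 and 43.6 in VCaP-CT-BR-ER. Its VCaP-CT-ER libraries were the highest, with those of VCaP-CT-BR just below and both VCaP-T and VCaP-CT well under. PSMC6 rose in VCaP-CT-BR against VCaP-CT at 0.65 ± 0.073 (edgeR adjusted p = 2.26e-07), and in the next step, to VCaP-CT-BR-ER, it differed by −0.18 ± 0.072 and did not pass (edgeR adjusted p = 0.0505). PSMA3 read 61.4, 55.9 and 53.7 CPM in VCaP-T, then 70.3, 64.1 and 76.02 in VCaP-CT, next 105, 97.9 and 113 in VCaP-CT-ER, then 113, 106 and 107 in VCaP-CT-BR and lastly 88.7, 92.1 and 98.3 in VCaP-CT-BR-ER. In PSMA3, VCaP-CT-ER and VCaP-CT-BR overlapped, and the rise in VCaP-CT-BR was 0.63 ± 0.067 (edgeR adjusted p = 1.09e-07). Both subunits rose in VCaP-CT-BR. So did 24 of the 28 measured proteasome genes listed from elsewhere in the genome (background 26.1%), with none lower (27.0%) and a median of 0.29. Against VCaP-CT those 28 genes had a median of 0.11 in VCaP-CT-ER, beside 0.82 for PSMC6 and 0.59 for PSMA3. Of the 28 genes 12 passed as higher (29.6%) and 3 as lower (31.2%). Among them PSMA6, PSMB5 and PSMC1 lie on chromosome 14 outside the range, and differed between VCaP-CT-ER and VCaP-CT by 0.52 ± 0.085, 0.37 ± 0.050 and 0.67 ± 0.18.

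All 4 cell cycle members rose in VCaP-CT-BR against VCaP-CT. CDKN3 codes for a dual-specificity phosphatase that acts on CDK2, and its window printed above holds 2 CCAAT boxes. CDKN3 read 19.7, 20.2 and 19.5 CPM in VCaP-T, then 16.8, 14.1 and 17.1 in VCaP-CT, next 45.3, 40.02 and 46.1 in VCaP-CT-ER, then 32.1, 29.6 and 31.9 in VCaP-CT-BR and lastly 31.1, 30.8 and 31.7 in VCaP-CT-BR-ER. The VCaP-CT-ER libraries were above all others, VCaP-CT-BR overlapped with VCaP-CT-BR-ER, and VCaP-CT was below VCaP-T. Its rise in VCaP-CT-BR was 0.96 ± 0.073 (edgeR adjusted p = 7.31e-10). DLGAP5, a spindle protein that stabilises microtubules at kinetochores, read 38.5, 45.3 and 43.2 CPM in VCaP-T, then 51.8, 43.7 and 51.5 in VCaP-CT, next 84.5, 82.6 and 93.5 in VCaP-CT-ER, then 129, 119 and 122 in VCaP-CT-BR and lastly 112, 103 and 115 in VCaP-CT-BR-ER. Here the order was another: all VCaP-CT-BR libraries lay above all of VCaP-CT-BR-ER, which in turn lay above all of VCaP-CT-ER, and the rise in VCaP-CT-BR was 1.33 ± 0.073 (edgeR adjusted p = 5.05e-12). WDHD1, a replication fork protein, rose by 0.55 ± 0.066 (edgeR adjusted p = 6.12e-07), and NIN, which anchors microtubules at the centrosome, by 0.28 ± 0.053 (edgeR adjusted p = 1.83e-04). The 18 mitosis genes listed from elsewhere all rose in the same comparison (background 26.1%), with a median of 0.92. In VCaP-CT-ER against VCaP-CT 14 of them passed as higher (29.6%) and 0 as lower (31.2%), with a median of 0.55. CDKN3 at 1.45 and DLGAP5 at 0.83 lay above that median in VCaP-CT-ER, WDHD1 at 0.69 did so by less, and NIN at 0.22 lay below it.

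The ER and secretion members held the gene with the highest level per length among the protein-coding members. TXNDC16, a thioredoxin-domain protein of the ER, averaged 37.98 CPM per kb and read 105, 107 and 105 CPM in VCaP-T, then 109, 99.3 and 111 in VCaP-CT, next 275, 274 and 309 in VCaP-CT-ER, then 168, 155 and 167 in VCaP-CT-BR and lastly 246, 226 and 244 in VCaP-CT-BR-ER. Its VCaP-CT-ER libraries lay above all others and those of VCaP-CT-BR-ER came second, while VCaP-T and VCaP-CT overlapped. TXNDC16 rose in VCaP-CT-BR, 0.62 ± 0.057 (edgeR adjusted p = 1.51e-08), and again in VCaP-CT-BR-ER, 0.55 ± 0.057 (edgeR adjusted p = 9.22e-08), where most other members did not. ERO1A, which re-oxidises protein disulfide isomerase, read 50.4, 52.8 and 51.01 CPM in VCaP-T, then 34.8, 30.6 and 34.3 in VCaP-CT, next 75.3, 78.2 and 83.2 in VCaP-CT-ER, then 49.4, 42.2 and 46.97 in VCaP-CT-BR and lastly 46.6, 40.5 and 47.7 in VCaP-CT-BR-ER. Its VCaP-CT level was the lowest, VCaP-CT-BR overlapped with VCaP-CT-BR-ER, VCaP-T stood just above them, and VCaP-CT-ER was the highest.

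TMX1, a membrane-bound thioredoxin of the ER, rose in VCaP-CT-BR by 0.39 ± 0.069 (edgeR adjusted p = 8.33e-05) and was 1.83 times the VCaP-CT level in VCaP-CT-ER. CNIH1, a cargo receptor for export from the ER, fell under androgen deprivation, −0.44 ± 0.055 (edgeR adjusted p = 4.21e-07), and rose in VCaP-CT-BR, 0.30 ± 0.055 (edgeR adjusted p = 9.21e-05). ATL1, an atlastin that shapes ER tubules, lay between 16.1 and 20.6 CPM in all 15 libraries and rose in VCaP-CT-BR by 0.24 ± 0.067 (edgeR adjusted p = 0.00506). KTN1, the kinesin-binding ER protein kinectin, had the most counts of the members and read 216, 237 and 220.4 CPM in VCaP-T, then 159.9, 142 and 154 in VCaP-CT, next 188, 197 and 204 in VCaP-CT-ER, then 302, 251 and 250.3 in VCaP-CT-BR and lastly 178, 181 and 168 in VCaP-CT-BR-ER. In KTN1, VCaP-CT-BR was highest with its replicate 1 well above the other 2, and VCaP-CT-ER lay below VCaP-T. KTN1 rose in VCaP-CT-BR, 0.82 ± 0.066 (edgeR adjusted p = 1.86e-09), and fell in VCaP-CT-BR-ER, −0.61 ± 0.066 (edgeR adjusted p = 1.84e-07). Of 13 genes of oxidative folding elsewhere in the genome, such as P4HB and PDIA4, 3 rose (background 26.1%) and 8 fell (27.0%) in VCaP-CT-BR. In VCaP-CT-BR-ER 10 of the 13 rose (21.2%) and 2 fell (21.7%). The 6 ER members had another count in those comparisons, 6 rising and 0 falling in the first, 1 rising and 2 falling in the second. In VCaP-CT-ER against VCaP-CT, 11 of the 13 genes elsewhere passed as higher (background 29.6%) and 0 as lower (31.2%), with a median of 0.45. The 6 members had a median of 0.83 there, which is only a description, since the range was chosen on such values.

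The 4 trafficking and autophagy members moved alike in 2 of the 3 tested comparisons. All rose in VCaP-CT-BR against VCaP-CT and all fell in VCaP-CT-BR-ER against VCaP-CT-BR. In VCaP-CT against VCaP-T they split, with ATG14 rising at 0.26 ± 0.074 (edgeR adjusted p = 0.00424) and the other 3 falling. EXOC5, a subunit of the exocyst that tethers secretory vesicles, read 97.6, 99.6 and 97.95 CPM in VCaP-T, then 67.2, 61.1 and 64.1 in VCaP-CT, next 98.2, 98.5 and 111 in VCaP-CT-ER, then 115, 105 and 109 in VCaP-CT-BR and lastly 80.8, 77.5 and 81.4 in VCaP-CT-BR-ER. VCaP-CT-ER overlapped with both VCaP-T and VCaP-CT-BR in EXOC5, and VCaP-CT-BR-ER and then VCaP-CT lay below them. The rise of EXOC5 was 0.78 ± 0.055 (edgeR adjusted p = 2.70e-10) and its fall −0.46 ± 0.054 (edgeR adjusted p = 6.51e-07). The 7 other exocyst genes, elsewhere in the genome, had medians of 0.013 and 0.058 in these comparisons. In the first 2 rose (background 26.1%) and 1 fell (27.0%), and in the second 2 rose (21.2%) and 0 fell (21.7%). The rises of these 7 genes were thus near the background. In VCaP-CT against VCaP-T 0 of these 7 rose (33.1%) and 4 fell (32.2%). In VCaP-CT-ER against VCaP-CT 2 passed as higher (29.6%) and 2 as lower (31.2%). AP5M1, the medium chain of the AP-5 adaptor, starts 99 bases inside EXOC5 on the other strand and shares exon bases with it, so unstranded counts of the pair are uncertain where they overlap. AP5M1 rose by 0.55 ± 0.074 (edgeR adjusted p = 2.28e-06) and then fell, −0.38 ± 0.073 (edgeR adjusted p = 2.57e-04). ACTR10, a dynactin subunit, fell in the second step at −0.16 ± 0.060 (edgeR adjusted p = 0.0352), and ATG14, of the kinase complex that starts autophagosomes, at −0.23 ± 0.072 (edgeR adjusted p = 0.0134).

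The 2 Hippo members parted in VCaP-CT-ER. SAV1, the scaffold of the kinases STK3 and STK4, read 21.99, 21.5 and 20.6 CPM in VCaP-T, then 31.6, 28.8 and 30.7 in VCaP-CT, next 46.2, 47.5 and 54.7 in VCaP-CT-ER, then 38.3, 36.03 and 37.7 in VCaP-CT-BR and lastly 43.9, 40.7 and 45.4 in VCaP-CT-BR-ER. SAV1 shares exon bases with ATL1 on the other strand, so unstranded counts of the pair are uncertain where they overlap. By level, SAV1 was ordered from VCaP-T over VCaP-CT, VCaP-CT-BR and then VCaP-CT-BR-ER to VCaP-CT-ER, with no overlap between any of the sublines. It rose in all 3 tested comparisons, by 0.51 ± 0.069 under androgen deprivation (edgeR adjusted p = 1.56e-06), 0.30 ± 0.067 in VCaP-CT-BR (edgeR adjusted p = 8.02e-04) and 0.21 ± 0.066 in VCaP-CT-BR-ER (edgeR adjusted p = 0.0115). FRMD6, a FERM-domain protein upstream of the pathway, read 1.62, 2.15 and 1.67 CPM in VCaP-T, then 3.71, 4.02 and 3.77 in VCaP-CT, next 1.95, 1.78 and 2.41 in VCaP-CT-ER, then 4.87, 5.26 and 5.45 in VCaP-CT-BR and lastly 2.67, 3.55 and 4.04 in VCaP-CT-BR-ER. FRMD6 in VCaP-CT-ER overlapped with VCaP-T, at 0.530 times the VCaP-CT level, while VCaP-CT-BR was the highest. The 13 Hippo genes listed from elsewhere showed no common direction, with 6 rising (background 26.1%) and 5 falling (27.0%) in VCaP-CT-BR.

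Among signalling members, several went against the rest of the range. GNG2, a gamma subunit of heterotrimeric G proteins, read 1.29, 1.72 and 1.32 CPM in VCaP-T, then 4.95, 4.27 and 5.26 in VCaP-CT, next 1.70, 1.46 and 2.11 in VCaP-CT-ER, then 12.1, 12.6 and 13.4 in VCaP-CT-BR and lastly 6.24, 7.21 and 6.29 in VCaP-CT-BR-ER. VCaP-T and VCaP-CT-ER overlapped at the bottom and VCaP-CT-BR stood far above the others, and GNG2 had the lowest log2 fold change of VCaP-CT-ER against VCaP-CT among the members, −1.47. PTGER2 read 0.220, 0.0817 and 0.188 CPM in VCaP-T, then 4.44, 5.72 and 5.37 in VCaP-CT, next 1.86, 2.67 and 2.43 in VCaP-CT-ER, then 1.74, 1.78 and 1.46 in VCaP-CT-BR and lastly 6.51, 7.02 and 6.21 in VCaP-CT-BR-ER. It was near 0 in VCaP-T, highest in VCaP-CT-BR-ER, and in VCaP-CT-ER at 0.448 times its VCaP-CT level. BMP4, a secreted growth factor of the BMP family, was low throughout, at 0.193, 0.218 and 0.400 CPM in VCaP-T, then 0.604, 0.826 and 0.894 in VCaP-CT, next 1.66, 1.44 and 1.69 in VCaP-CT-ER, then 0.363, 0.549 and 0.273 in VCaP-CT-BR and lastly 0.583, 0.732 and 0.367 in VCaP-CT-BR-ER, and its VCaP-CT-ER libraries were the highest. BMP4 rose under androgen deprivation, 1.48 ± 0.33 (edgeR adjusted p = 5.55e-04), and fell in VCaP-CT-BR, −0.98 ± 0.31 (edgeR adjusted p = 0.0115).

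PELI2, a ubiquitin ligase of Toll-like and interleukin-1 receptor signalling, read 14.8, 13.9 and 14.6 CPM in VCaP-T, then 18.3, 17.9 and 19.1 in VCaP-CT, next 33.1, 38.2 and 37.2 in VCaP-CT-ER, then 14.3, 14.6 and 14.6 in VCaP-CT-BR and lastly 21.7, 18.8 and 18.4 in VCaP-CT-BR-ER. Its VCaP-CT-ER level was 1.96 times that of VCaP-CT, with no overlap, and VCaP-T and VCaP-CT-BR overlapped. PELI2 fell in VCaP-CT-BR, −0.35 ± 0.074 (edgeR adjusted p = 5.03e-04), and rose in VCaP-CT-BR-ER, 0.44 ± 0.073 (edgeR adjusted p = 4.96e-05), opposite in sign to the members' median in both. SOCS4, a suppressor of cytokine signalling whose start lies 125 bases from that of WDHD1, read 38.2, 38.9 and 39.3 CPM in VCaP-T, then 31.1, 29.8 and 33.5 in VCaP-CT, next 50.1, 49.8 and 55.4 in VCaP-CT-ER, then 56.02, 52.2 and 57.4 in VCaP-CT-BR and lastly 42.3, 41.2 and 38.5 in VCaP-CT-BR-ER. SOCS4 rose in VCaP-CT-BR by 0.81 ± 0.062 (edgeR adjusted p = 7.71e-10) and fell in VCaP-CT-BR-ER, −0.44 ± 0.060 (edgeR adjusted p = 4.76e-06). WDHD1 on the other side of the shared interval rose too in the first step and differed by 0.064 ± 0.065 in the second without passing (edgeR adjusted p = 0.46). STYX, a pseudophosphatase, and MAPK1IP1L both rose in VCaP-CT-BR, by 0.60 ± 0.070 (edgeR adjusted p = 3.53e-07) and 0.27 ± 0.052 (edgeR adjusted p = 1.88e-04), and both were highest in VCaP-CT-ER without overlap.

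PYGL, the liver form of glycogen phosphorylase, showed the largest difference between VCaP-CT-ER and VCaP-CT among the members, 2.72 ± 0.10. It read 7.63, 7.27 and 8.19 CPM in VCaP-T, then 2.20, 2.14 and 2.12 in VCaP-CT, next 13.2, 13.8 and 15.5 in VCaP-CT-ER, then 1.45, 1.07 and 1.29 in VCaP-CT-BR and lastly 5.71, 5.34 and 5.30 in VCaP-CT-BR-ER. The VCaP-CT-ER libraries were 6.56 times the VCaP-CT level and still above VCaP-T, VCaP-CT-BR was lowest, and no 2 sublines overlapped. PYGL fell at the first and second steps, to VCaP-CT and then VCaP-CT-BR, and rose at the last, to VCaP-CT-BR-ER, as given above, so its order of sublines was not that of its neighbours. GNPNAT1, an acetyltransferase on the path to UDP-N-acetylglucosamine, read 106, 109 and 105 CPM in VCaP-T, then 70.98, 63.8 and 75.8 in VCaP-CT, next 113, 121 and 134 in VCaP-CT-ER, then 91.1, 86.3 and 88.5 in VCaP-CT-BR and lastly 83.5, 82.3 and 85.9 in VCaP-CT-BR-ER. GNPNAT1 fell under androgen deprivation, −0.60 ± 0.063 (edgeR adjusted p = 2.99e-08), and rose in VCaP-CT-BR, 0.34 ± 0.063 (edgeR adjusted p = 1.25e-04), short of its level in VCaP-T. GCH1, which makes the first step to tetrahydrobiopterin, followed the same signs, at −0.46 ± 0.074 (edgeR adjusted p = 1.37e-05) and 0.23 ± 0.074 (edgeR adjusted p = 0.0124).

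The adhesion and matrix members were read from fewer counts. FERMT2, the integrin activator kindlin-2, read 13.6, 13.3 and 12.8 CPM in VCaP-T, then 5.04, 3.53 and 5.45 in VCaP-CT, next 7.33, 7.33 and 8.54 in VCaP-CT-ER, then 7.41, 6.15 and 6.35 in VCaP-CT-BR and lastly 6.05, 5.31 and 5.17 in VCaP-CT-BR-ER. VCaP-CT held 0.353 times the VCaP-T level of FERMT2, and VCaP-CT-ER and VCaP-CT-BR overlapped with each other between them. LGALS3, or galectin-3, was at 1.15 ± 0.276 CPM (SD, n = 3) in VCaP-CT-ER but 0.306 ± 0.0561 in VCaP-CT, and rose in VCaP-CT-BR by 0.89 ± 0.32 (edgeR adjusted p = 0.0241). NID2, a nidogen of basement membranes, was at 0.944 ± 0.108 CPM in VCaP-CT-ER and between 0.131 and 0.494 in each other library. NID2 shares exon bases with RTRAF on the other strand, which averaged 16.5 CPM per kb against 0.0654 for NID2, so its unstranded counts are uncertain.

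RTRAF, a factor of RNA transcription and transport, SAMD4A, an RNA-binding repressor of translation, and NAA30, the catalytic subunit of the N-terminal acetyltransferase NatC, all rose in VCaP-CT-BR. SAMD4A read 19.9, 19.8 and 19.3 CPM in VCaP-T, then 15.7, 19.9 and 17.5 in VCaP-CT, next 57.5, 56.1 and 58.4 in VCaP-CT-ER, then 26.9, 28.6 and 25.6 in VCaP-CT-BR and lastly 28.1, 28.3 and 26.7 in VCaP-CT-BR-ER. Its VCaP-CT-ER libraries stood at 2.12 times VCaP-CT-BR, 2.07 times VCaP-CT-BR-ER and 3.24 times VCaP-CT, and in the other sublines it stayed between 15.7 and 28.6 CPM. SAMD4A rose in VCaP-CT-BR by 0.61 ± 0.071 (edgeR adjusted p = 3.75e-07). RTRAF rose by 0.39 ± 0.058 (edgeR adjusted p = 8.72e-06) and NAA30 by 0.43 ± 0.071 (edgeR adjusted p = 3.27e-05). GPR137C, a membrane protein gene whose start lies 626 bases from that of TXNDC16 on the other strand, read 4.18, 4.06 and 4.47 CPM in VCaP-T, then 3.2, 2.82 and 3.61 in VCaP-CT, next 11.99, 10.95 and 11.9 in VCaP-CT-ER, then 9.90, 9.21 and 7.11 in VCaP-CT-BR and lastly 4.86, 4.31 and 5.03 in VCaP-CT-BR-ER. In GPR137C, VCaP-CT-ER was the highest, VCaP-CT-BR second, and VCaP-CT-BR-ER back near VCaP-T, whereas TXNDC16 was higher in VCaP-CT-BR-ER than in VCaP-CT-BR.

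**Figure D5:**
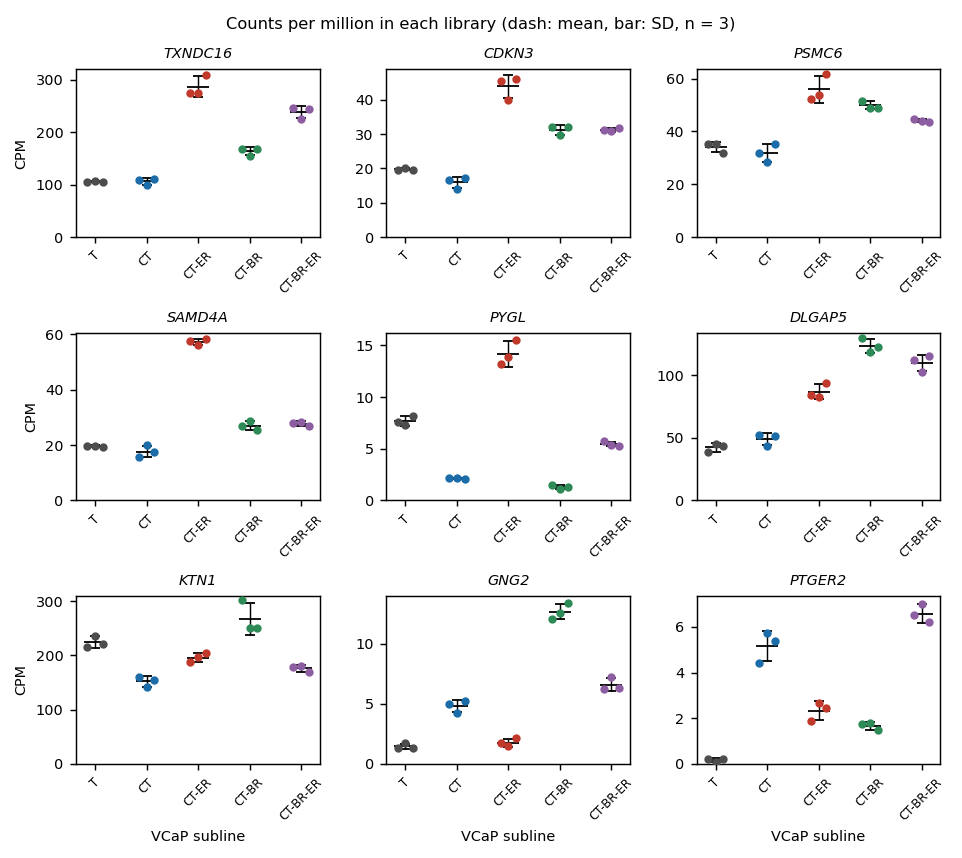
CPM of 9 members in each library (points; dash and bar, mean and SD of 3 replicates; axes start at 0). TXNDC16, CDKN3, PSMC6 and SAMD4A are highest in VCaP-CT-ER with VCaP-T and VCaP-CT lowest, PYGL is highest in VCaP-CT-ER and lowest in VCaP-CT-BR, DLGAP5 and KTN1 peak in VCaP-CT-BR, and GNG2 and PTGER2 are low in VCaP-CT-ER relative to VCaP-CT.

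The 7 protein-coding members left, TRIM9, DDHD1, GMFB, CGRRF1, FBXO34, TMEM260 and ARMH4, differed between VCaP-CT-ER and VCaP-CT by −0.79 (ARMH4) to 1.62 (DDHD1) on the log2 scale. In VCaP-CT-BR against VCaP-CT 5 of them rose (background 26.1%), 0 fell (27.0%) and 2 did not pass, with a median of 0.46. Under androgen deprivation 1 rose (33.1%) and 4 fell (32.2%). Among the noncoding members, PSMA3-AS1, transcribed next to PSMA3 from the other strand, read 27.7, 33.1 and 26.8 CPM in VCaP-T, then 33.5, 31.8 and 37.1 in VCaP-CT, next 65.2, 66.2 and 67.3 in VCaP-CT-ER, then 55.9, 47.1 and 46.3 in VCaP-CT-BR and lastly 41.6, 42.2 and 42.6 in VCaP-CT-BR-ER. VCaP-CT-ER was highest and VCaP-CT-BR second without overlap, and PSMA3-AS1 rose in VCaP-CT-BR by 0.54 ± 0.079 (edgeR adjusted p = 7.19e-06) and fell in VCaP-CT-BR-ER, −0.24 ± 0.078 (edgeR adjusted p = 0.0168). Both LINC00216, which read at most 0.845 CPM, and ARMH4 share exon bases with it, so unstranded counts of the 3 are uncertain where they overlap. The other 12 noncoding genes and pseudogenes had a median of 0.19 in VCaP-CT-BR, with 3 rising (background 26.1%) and 2 falling (27.0%). The pseudogene ENSG00000279392 had the highest level per length of all members, 48.9 CPM per kb, and as reads counted for a processed pseudogene can belong to its parent gene, its counts are uncertain. In all, 11 members share exon bases with another gene with a mean count of at least 10, and 35 overlap no exon of any listed gene.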

How the data were processed

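Total RNA of the 15 libraries, 3 for each of 5 VCaP sublines, was sequenced on an Illumina HiSeq instrument. The authors aligned paired reads to GRCh38 with STAR 2.5.4b, per the labels, and deposited raw fragment counts per gene made with featureCounts 1.6.2, unstranded, against GENCODE 28 per the file headers. Unstranded counting cannot tell apart genes that overlap on opposite strands. The counts were matched to symbols for 57799 genes (99.0%).

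Genes were kept with filterByExpr (minimum count 10), scaled by TMM and fitted in edgeR 4.0.16 (R 4.3.3) with a term for each subline over all 15 libraries. P-values were adjusted by Benjamini-Hochberg over all 19621 genes tested, with calls at 0.05. The biological coefficient of variation was 0.061. Each SE is the size of the log2 fold change divided by the square root of the edgeR F statistic. It is not a fitted standard error. For large folds from few counts, such as those of PTGER2 and TRIM9 against VCaP-T, it can be too small. CPM values are TMM-scaled. Named genes are members of role lists, the first and last 2 members, the 2 nearest genes on either side, the 3 largest and 3 smallest differences of VCaP-CT-ER against VCaP-CT and the 2 largest rises and falls of each tested comparison, among members with a mean log2 CPM of 1 or more. The members and lists were chosen with earlier results of these data known. The fit was tested on simulated data. Alternatives, including DESeq2 1.42.0, stand in the closing section. Some marker genes are not reported here.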

Additional observations from a re-analysis of the deposited data

Results flagged for a closer look

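For 18 of the 37 named members, all VCaP-CT-ER libraries differed from all VCaP-CT libraries in one direction. All VCaP-CT-BR-ER libraries differed from all VCaP-CT-BR libraries in the other, although ENZ was the last agent in both. Over all genes tested, 6.65% had this pattern with VCaP-CT-ER higher and 6.62% with VCaP-CT-ER lower. The difference between the steps was not tested, and the side of VCaP-CT-ER was used to choose the range. PTGER2 alone was lower in VCaP-CT-ER, with a log2 fold change of 1.99 in VCaP-CT-BR-ER against VCaP-CT-BR. The other 17 were higher in VCaP-CT-ER. Their log2 fold changes in VCaP-CT-BR-ER against VCaP-CT-BR were −0.88 for GPR137C, −0.61 for KTN1, −0.46 for EXOC5, −0.44 for SOCS4, −0.38 for AP5M1, −0.27 for FERMT2, −0.24 for PSMA3-AS1, −0.23 for ATG14, −0.22 for PSMA3 and −0.21 for NIN. They were −0.20 for GCH1, −0.18 for PSMC6, −0.17 for DLGAP5, −0.16 for ACTR10, −0.12 for NAA30, −0.11 for RTRAF and −0.079 for GNPNAT1, of which PSMC6, DLGAP5, NAA30, RTRAF and GNPNAT1 did not pass edgeR at an adjusted p under 0.05, nor did FERMT2.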

How the results depend on the processing

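Members called higher in VCaP-CT against VCaP-T numbered 9 when 10 counts were required in every library, and members called lower in VCaP-CT-BR against VCaP-CT then numbered 3, since 11 members leave the count. Over the protein-coding members alone, a choice made after the data were seen, the median log2 fold change of VCaP-CT against VCaP-T was −0.18. In VCaP-CT-BR-ER against VCaP-CT-BR the median was −0.061 without VCaP-CT-BR replicate 1 and −0.144 over members with a mean log2 CPM of 1 or more, and the cause was not tested. Leaving out each of the 15 libraries in turn gave 11 to 15 members higher and 18 to 22 lower in VCaP-CT against VCaP-T (median −0.106 to −0.04, the last without VCaP-CT replicate 2), 34 to 38 and 4 to 6 in VCaP-CT-BR against VCaP-CT (median 0.353 to 0.417), and 5 to 6 and 12 to 21 in VCaP-CT-BR-ER against VCaP-CT-BR (median −0.142 to −0.061). The medians of VCaP-CT-ER were then 0.661 to 0.772 against VCaP-CT, 0.589 to 0.685 against VCaP-T, 0.333 to 0.39 against VCaP-CT-BR and 0.381 to 0.471 against VCaP-CT-BR-ER. The replicate numbers do not pair the libraries: same-numbered libraries deviated together in 0 to 2 of 3 pairs of a comparison (correlations from −0.336 to 0.31). With the replicate block, 14 members rose and 20 fell in VCaP-CT against VCaP-T, 38 and 6 in VCaP-CT-BR against VCaP-CT, and 6 and 18 in VCaP-CT-BR-ER against VCaP-CT-BR, and 1 of the 111 results of named members changed its call. Over all alternatives, these 111 results gave 2316 values, of which 47 lost a call, 17 gained one and 0 reversed a called direction. Members under 1 CPM, such as NID2 and LINC00216, are limited by depth.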
